A study of Drosophila melanogaster with 2 samples.

Results

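The peaks of Crc at divergent promoters were taken from the list of reproducible, or optimal, peaks on the dm6 build of the Drosophila melanogaster genome. A peak was kept where its summit was at most 500 bp from the start of a protein-coding transcript that belonged to a divergent pair, that is, 2 genes on opposite strands, transcribed away from each other, with starts at most 1000 bp apart. The rule found 521 of the 2420 optimal peaks (21.5%, Wilson 95% interval 19.9 to 23.2), and these made up 42.6% of the 1224 optimal peaks at promoters. The other 703 promoter peaks and the 1196 peaks away from promoters served for comparison. The rule used summit positions and the annotation, and no signal beyond entry into the optimal list.

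The study mapped binding of Crc (cryptocephal) by chromatin immunoprecipitation and sequencing (ChIP-seq) in whole embryos of mixed sex, aged 0 to 24 h. The line, crc-MiMIC-GFP, carries an eGFP exon inserted into an intron of crc, so that the tagged protein is made from the crc locus itself, and the precipitation used an antibody against GFP. There was 1 group with 2 biological replicates and no other genotype, stage or treatment. Because whole embryos of all stages were pooled, a peak cannot be placed in a cell type or a stage, and a peak in few cells cannot be told apart from weak binding in many.

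Crc is the fly member of the ATF4 family, basic leucine zipper (bZIP) factors known for driving amino acid metabolism, tRNA charging and stress genes when phosphorylation of eIF2 slows general translation. A divergent promoter is a stretch of DNA from which transcription leaves in both directions toward different genes, so that a factor bound there lies upstream of both. In Drosophila such promoters often serve genes used in most cells and often carry elements such as the DRE, which Dref and BEAF-32 bind, or Motif 1, which M1BP binds.

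Sequences of 151 bases centred on the summit, which is base 76, are given on the plus strand of dm6 (RefSeq copy of Release 6) for peaks that the results below turn on. Capitals mark matches on either strand to the DRE (TATCGATA), Motif 1 (GGTCACACT), Motif 6 (GTATATTT or GTATTTTT), the E-box core element (CAGCTG) and the C/EBP-ATF response element, CARE (TGATGNAAT or TGATGNAAC). The first 3 are the strongest peaks outside a chromosome arm for which no sequence is printed, and none of the 5 elements is in their windows. They lie at chrX:2703817-2703967, chr3L:22878812-22878962 and chr3R:31404574-31404724, and each is named by its minus-strand gene and then its plus-strand gene.
Ugalt/eIF2Bbeta: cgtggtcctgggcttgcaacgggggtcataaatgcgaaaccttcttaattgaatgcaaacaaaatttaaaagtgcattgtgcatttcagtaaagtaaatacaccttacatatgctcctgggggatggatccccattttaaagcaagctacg
Chro/Ssl1: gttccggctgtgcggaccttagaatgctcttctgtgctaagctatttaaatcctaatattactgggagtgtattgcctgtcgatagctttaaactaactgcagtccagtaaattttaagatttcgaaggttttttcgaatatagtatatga
PNPase/Gprk2: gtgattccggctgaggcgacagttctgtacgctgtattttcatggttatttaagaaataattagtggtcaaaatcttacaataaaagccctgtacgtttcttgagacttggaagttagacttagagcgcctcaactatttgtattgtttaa

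The next 3, at chr3L:3222925-3223075, chr3R:11216260-11216410 and chr2L:19045197-19045347, are the strongest with a DRE inside the printed window. The DRE begins at base 121, base 80 and base 133 of these windows, so all 3 lie to the plus-strand side of the summit.
RpL28/eIF1: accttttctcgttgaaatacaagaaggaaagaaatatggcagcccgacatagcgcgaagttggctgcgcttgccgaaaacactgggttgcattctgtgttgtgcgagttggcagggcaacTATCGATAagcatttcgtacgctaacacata
RpS25/CG4820: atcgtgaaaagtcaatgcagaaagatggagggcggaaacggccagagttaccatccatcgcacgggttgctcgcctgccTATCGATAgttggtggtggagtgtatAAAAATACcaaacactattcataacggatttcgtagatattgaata
Ttc19/Acn: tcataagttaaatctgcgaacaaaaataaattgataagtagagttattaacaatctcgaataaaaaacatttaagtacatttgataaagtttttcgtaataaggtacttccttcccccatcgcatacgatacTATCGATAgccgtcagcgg

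The strongest with Motif 1, at chr2L:10200974-10201124 and chr3L:22075988-22076138, are both promoters of ribosomal protein genes. The only peaks with a CARE inside the printed window on the arms shown lie at chr2L:9967206-9967356 and chr3L:3178793-3178943. The first, between Dref and RpL13, has a pooled signal of 157.2, above the upper quartile of the set (144.7). The second is the weakest of the 521 peaks.
Ripalpha/RpL7: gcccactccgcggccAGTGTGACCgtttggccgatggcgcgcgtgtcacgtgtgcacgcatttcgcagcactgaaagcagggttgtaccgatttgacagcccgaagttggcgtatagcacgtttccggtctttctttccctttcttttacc
CG7130/RpLP0: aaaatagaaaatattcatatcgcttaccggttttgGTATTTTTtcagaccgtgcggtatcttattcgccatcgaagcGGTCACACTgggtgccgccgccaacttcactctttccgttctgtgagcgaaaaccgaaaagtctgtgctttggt
Dref/RpL13: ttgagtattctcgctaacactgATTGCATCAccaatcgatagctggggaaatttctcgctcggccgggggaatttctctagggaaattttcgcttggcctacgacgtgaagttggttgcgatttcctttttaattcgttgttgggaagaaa
MnM/Girdin: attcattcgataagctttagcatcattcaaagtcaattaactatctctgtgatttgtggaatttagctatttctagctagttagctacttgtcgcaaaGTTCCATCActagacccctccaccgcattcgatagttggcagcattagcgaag

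Signal is the value that the authors' peak caller gave each peak, with no stated normalization, and it is used here only to rank and describe peaks within a list. Over the 521 peaks the pooled signal had a median of 100.4 (quartiles 79.0 and 144.7, range 64.1 to 1274). The median was 100.9 at other promoters and 96.9 over all optimal peaks, so these medians lie close together beside the spread within the set. They supplied 26 of the 100 strongest optimal peaks.

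The strongest peak of the whole optimal list lay between Ugalt, a Golgi transporter of UDP-galactose, and eIF2Bbeta, a subunit of the exchange factor that recharges eIF2 and on which the stress response to eIF2 phosphorylation acts. Its signal was 1274 in the pooled list, 516.3 in replicate 1 and 761.7 in replicate 2, and it ranked second in each replicate. Its summit was 40 bp upstream of the Ugalt start and 679 bp from the eIF2Bbeta start, so under the 500 bp limit it was assigned through Ugalt, and eIF2Bbeta was not counted as bound by it.

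Mitochondrial gene expression was represented among the next in rank. The peak between mRpL41, a protein of the large mitochondrial ribosomal subunit, and CG8079 had signals of 833.9 pooled, 389.7 in replicate 1 and 448.5 in replicate 2. That between PNPase, the mitochondrial polynucleotide phosphorylase, and Gprk2, a kinase of G protein-coupled receptors, had 792.6 pooled, 320.2 in replicate 1 and 471.4 in replicate 2. The small-subunit genes mRpS23, paired with the Arf GTPase-activating protein gene CenG1A, and mRpS10, paired with the arginine methyltransferase gene Art3, had pooled signals of 672.2 and 496.7. All of these ranked within the strongest 39 candidates of both replicates.

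Chro encodes the chromodomain protein Chromator, and Ssl1 a subunit of the general factor TFIIH. Their peak had signals of 793.5 pooled, 305.2 in replicate 1 and 487.3 in replicate 2. Its summit was 97 bp downstream of the Chro start, in a 5' UTR of a gene of the pair. Tcs5 (the kinase of the KEOPS tRNA modification complex) and CHMP2B (a component of the ESCRT-III membrane machinery) shared a peak of 621.5, with 227.5 in replicate 1 and 393.3 in replicate 2. Pdrg1 and Pal1, Fbw5 and CG9147, tank and CG12194, and CG8372 and CG8360 followed with pooled signals of 570.7, 549.8, 520.2 and 509.0. In each of these 6 pairs replicate 2 gave the higher signal, as at 396 of the 485 peaks with a candidate in both replicates. All 6 ranked within the strongest 36 candidates of both.

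The rest of the 20 strongest ran from 498.0 at CG7601 and CIA30, an assembly factor of respiratory complex I, to 353.7 at mRpL23 and CG9004. They included CG11309 and CG7632 (481.3), the tubulin acetyltransferase gene Atat with the adaptor gene Shc (467.4), CG5757 and CG5098 (415.5), the AMPK beta subunit gene alc with CG8788 (384.8), the ubiquinone biosynthesis gene Coq4 with CG32176 (384.5), CG4741 and Adck1 (366.2), and the ribosomal protein gene RpS27 with the nucleoporin gene Nup37 (361.5). The pair of ferritin genes, Fer1HCH for the heavy chain and Fer2LCH for the light chain of the iron store, had a peak of 316.1, with 114.7 in replicate 1 and 202.9 in replicate 2, and its summit was 215 bp downstream of the Fer2LCH start, in an intron.

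Support in the 2 replicates was read from each replicate's own list of 30000 candidates, with summits at most 100 bp apart. Both replicates had a candidate at 485 of the 521 peaks (93.1%, interval 90.6 to 94.97), replicate 1 alone at 20, replicate 2 alone at 15 and neither at 1, the peak between Usp5 and BtbVII (pooled signal 74.2). A candidate was present at 505 of the 521 in replicate 1 (96.9%), against 96.6% over all 2420 optimal peaks, and at 500 in replicate 2 (96.0%), against 97.9%. The replicate 1 share is close to that of the whole list, and the replicate 2 share is below it (interval 93.9 to 97.3), with 98.6% at other promoters and 98.4% away from promoters. Where summits were allowed to lie 200 bp apart, every peak had a candidate in both replicates. The optimal list joins both replicates and was chosen for reproducibility, so high support follows in part from how its peaks were selected.

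The strongest peaks without a candidate in replicate 2 were those at RpL18 and Neos (pooled 123.5, replicate 1 60.3), a second, weaker peak of eIF4EHP and CG18428 (118.0 and 53.3), CG4572 and CG4686 (109.9 and 54.2), Xe7 and Atg17 (104.4 and 54.6), and CG13690 and RpLP1 (99.0 and 48.9). Those without one in replicate 1 were at Kmn2 and CG2698 (pooled 104.6, replicate 2 63.5), CG10467 and loj (103.7 and 75.9), Fibp and Deaf1 (100.7 and 59.1), lin-52 and CG15771 (97.7 and 51.0), and CG13097 and PIG-U (90.3 and 68.4). All 10 had pooled signals under the upper quartile of the set. RpL18 and Neos also had a second, weaker peak (pooled 91.1), with 21.6 in replicate 1 and 71.5 in replicate 2.

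Across the 485 peaks with a candidate in both, signals of the replicates had a Spearman correlation of 0.69, a description over regions that are not independent samples. The signal was higher in replicate 2 at 396 of the 485, and the median ratio of replicate 2 over replicate 1 was 1.32 at divergent promoters, against 1.5 at other promoters and 1.51 away from promoters. Replicate 2 gave the better rank at 192 of the 485 peaks, against 362 of 670 at other promoters. The largest differences in rank were at a second, weak peak of RpL34b and CG8132 (pooled 71.5, rank 27574 in replicate 1 and 1215 in replicate 2), at a second, weak peak of CG3902 and RpL26 (66.7, 26446 and 3146), at ogre and bou (104.7, 18586 and 591), at CG5555 and myd (65.0, 1316 and 15631) and at a second, weak peak of Nup98-96 and mbc (67.3, 16275 and 2585). Apart from ogre and bou, these are near the lower end of the optimal signals. The stronger peaks at RpL34b, RpL26 and Nup98-96 had signals of 93.1, 56.6 and 69.0 in replicate 1 and 84.4, 63.9 and 58.2 in replicate 2. At RpL34b and at Nup98-96 the intervals of the weak and the stronger peak overlap.

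**Figure D1:**
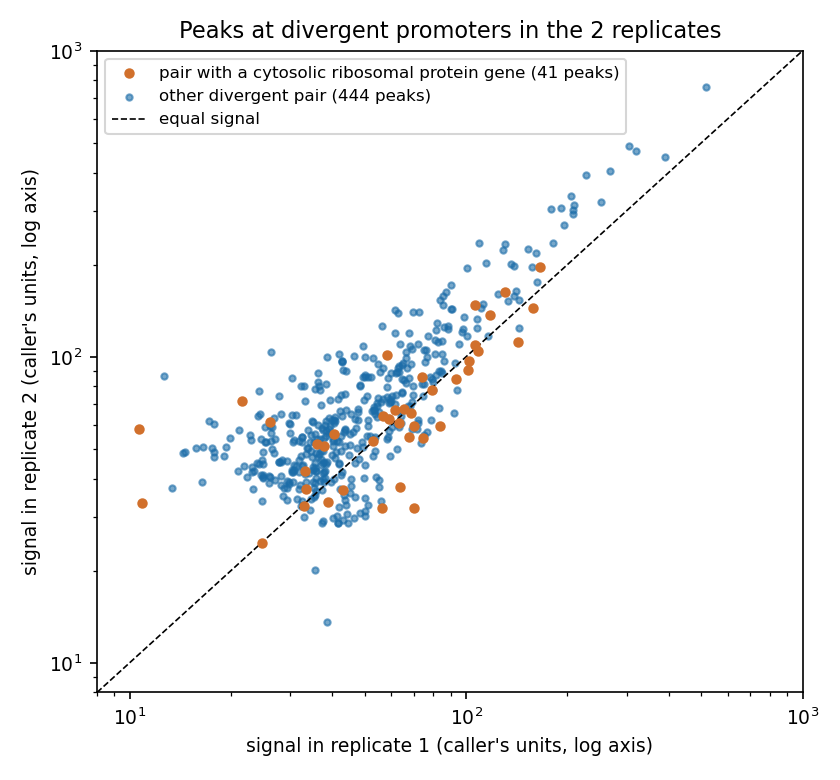
Signal of each of the 485 peaks at divergent promoters with a candidate in both replicates, replicate 1 on the x axis and replicate 2 on the y axis, both in the caller's units on log axes. Points of pairs with a cytosolic ribosomal protein gene (41 peaks, orange) lie around the dashed line of equal signal, with a median ratio of 1.01, and most of the other 444 (blue) lie above it, with a median ratio of 1.35.

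The annotation holds 2667 divergent pairs of protein-coding genes, which take in 5052 of the 13968 protein-coding genes (36.2%). At 554 pairs an optimal peak met the 500 bp limit (20.8%, interval 19.3 to 22.4), and at 1863 a pooled candidate did (69.9%). Of the 554 bound pairs, 461 (83.2%) had an optimal summit within the limit of both genes. Of the genes in divergent pairs 1024 (20.3%, interval 19.2 to 21.4) were bound in this sense, against 581 of the 8916 other genes (6.52%, interval 6.02 to 7.05) and 11.5% of all protein-coding genes. Part of this gap lay in whether any candidate was called: 65.4% of genes in divergent pairs had one, against 34.2% of other genes, and among genes with a candidate the bound shares were 31.0% and 19.1%. In both counts a single summit within the limit of both genes of a pair counts for each of them. The part of this counting rule in the difference was not tested. Gene activity in these embryos was not measured, and its part in the difference was not tested.

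Optimal peaks are the strongest of the 24369 pooled candidates, of which 9.93% are optimal, so the share of candidates that are optimal is a share of strong peaks. At divergent promoters 521 of 2336 candidates were optimal (22.3%, interval 20.7 to 24.0), against 703 of 4450 at other promoters (15.8%, interval 14.8 to 16.9) and 18% of promoter candidates together. The 1815 candidates that missed the list had a median signal of 30.6, and the strongest, at HtrA2 and mRpL11, had 63.9, beside 64.0 for the weakest optimal peak anywhere. By arm, the bound share of pairs was 25.2% on 3R, 22.2% on 3L, 21.2% on 2L, 17.3% on 2R and 16.1% on X, and none of the 11 pairs on chromosome 4 was bound (interval up to 25.9%). The order of arms rests partly on how pairs are counted. On 3R a single peak, at pre-mod(mdg4)-E and pre-mod(mdg4)-Y, met the limit of 21 pairs. On 2L lie 42 pairs of repeated histone genes, none of them bound.

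Some pairs held more than 1 optimal peak. The 521 peaks fell on 498 nearest pairs, 23 of which had more than 1 peak, and 35 peaks lay within the limit of more than 1 pair. At alc and CG8788 the pooled signals were 384.8 and 77.4, at Fur1 and Vps33B 333.6 and 138.3, at Bdp1 and CG6565 297.3 and 67.9, at Ac78C and chb 261.1 and 198.0, and at RpL41 and NaCP60E 255.7 and 64.6. These 5 have the strongest peaks among the 23. At Fur1 and Vps33B, Bdp1 and CG6565, and RpL41 and NaCP60E the intervals of the peaks overlap. Whether such peaks are separate sites or parts of 1 region was not tested. In 4 of the 5 the stronger peak had over 2 times the signal of the weaker, and over all 23 this was so in 8.

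Within the pair, 403 of the 521 summits (77.4%, interval 73.6 to 80.7) lay between the starts, 92 in a 5' UTR of a gene of the pair, 25 in an intron and 1 in a coding exon. Both starts were within 500 bp of the summit at 432 (82.9%). The nearer start was that of the minus-strand gene at 268 and of the plus-strand gene at 252, with 1 summit equally near both, so the strands were nearly even. The median distance was 87 bp to the nearer start and 84 bp to the midpoint between the starts.

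Relative to the nearer start the median summit was 67 bp upstream (quartiles 7 and 114), against 154 bp upstream (57.5 and 267.5) at other promoters. Of the summits at divergent promoters 72.2% lay 1 to 200 bp upstream, against 45.9% at other promoters. The rule itself sets part of this difference, since a summit between the starts cannot be farther from the nearer start than the midpoint is.

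**Figure D2:**
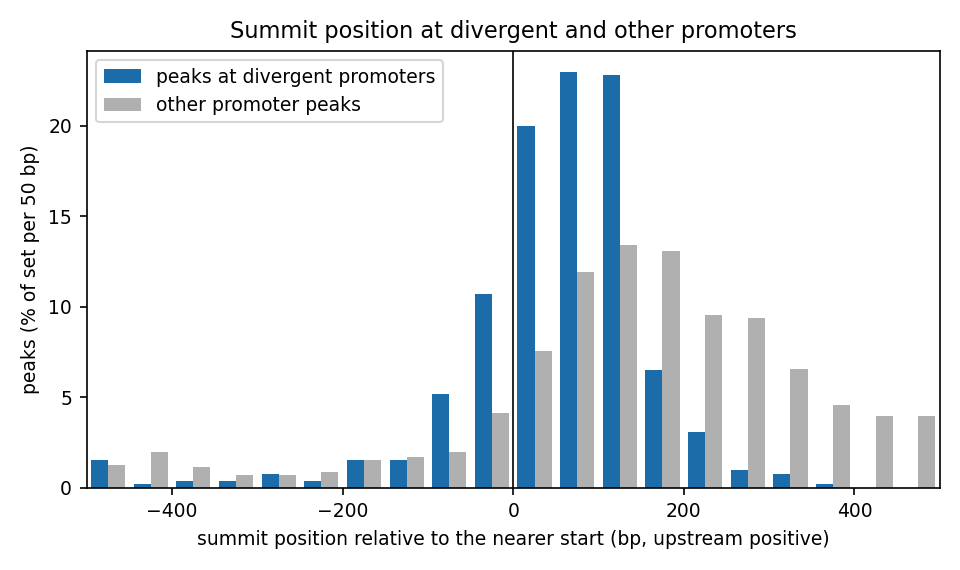
Position of the summit relative to the nearer start, in bins of 50 bp with upstream positive, as percent of the 521 peaks at divergent promoters (blue) and of the 703 other promoter peaks (grey). The peaks at divergent promoters pile up just upstream of the start, with a median of 67 bp, and the other promoter peaks spread farther upstream, with a median of 154 bp.

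With each pair taken at its closest starts, the gap had a median of 288.5 bp in bound pairs (quartiles 192.5 and 439.5) and 306 bp in unbound pairs (160 and 517). Taken at the starts nearest the summit, it had a median of 304 bp over the 521 peaks (228 and 479). Pairs 201 to 300 bp apart had the highest bound share, 28.6% (155 of 542, interval 24.95 to 32.5). The share was 15.4% at 101 to 200 bp (55 of 356, interval 12.1 to 19.6), 20.7% at 0 to 100 bp (89 of 430, interval 17.1 to 24.8), 21.4% at 301 to 500 bp (143 of 667, interval 18.5 to 24.7) and 16.7% at 501 to 1000 bp (112 of 672, interval 14.0 to 19.7). The interval of the bin of 201 to 300 bp overlapped that of no other bin, though by a narrow margin. Most of the 42 pairs of repeated histone genes, none of them bound, fall in the bin of 101 to 200 bp and lower its share. The region searched around a pair widens with the gap, since it reaches 500 bp beyond both starts. Bound shares use the closest starts of a pair, and the values of peaks that follow use the starts nearest the summit. Median signal ran from 113.0 in the narrowest bin to 96.5 in the widest, within the quartiles of the set.

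Where the starts were at most 100 bp apart, 13 of 59 summits (22.0%) were between them. At 201 to 300 bp 135 of 152 (88.8%) were, with a median of 39.2 bp to the midpoint. A narrow gap leaves little room for a summit between the starts, so the gap itself sets part of this difference. The shortest gaps were 6 bp at CG3032 and CG4593 (pooled 116.3, replicate 1 58.9, replicate 2 57.2) and 8 bp at SerRS, a seryl-tRNA synthetase gene, and CG17260 (192.9, 82.7 and 111.6). The longest was 1000 bp at RpS7 and Anp (78.8, 33.1 and 42.2).

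**Figure D3:**
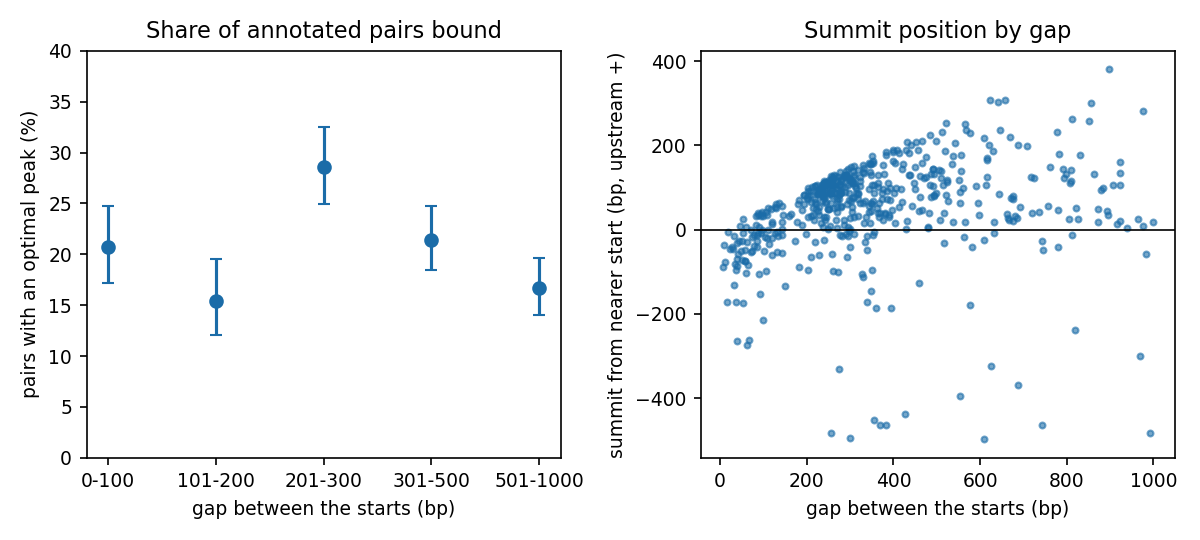
Left, percent of annotated divergent pairs with an optimal peak by the gap between their starts, with Wilson 95% intervals, highest at 201 to 300 bp (28.6%). Right, each of the 521 summits by the gap (x axis, bp) and its position relative to the nearer start (y axis, bp, upstream positive), with most points above 0 and those of the shortest gaps below it.

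A gene of a list counted as bound where an optimal summit met the limit, also where its partner's start was the nearer. Of the lists of genes by function, the cytosolic ribosome stood first. An optimal peak met the limit at 36 of its 55 genes in divergent pairs (65.5%) and at 18 of its 37 other genes (48.6%), beside 20.3% and 6.52% of all protein-coding genes. The 3 strongest were RpS27 (361.5, above), RpL7 with Ripalpha (305.4 pooled, 157.6 in replicate 1, 144.7 in replicate 2) and RpL32 with CG7943 (286.5, 130.7 and 163.0). The median pooled signal of the 44 peaks with such a gene was 124.7, against 99.5 for the other 477.

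These 44 peaks also differed from the rest in position and between replicates. The nearer start was that of the ribosomal protein gene at 35 of them, and 31 summits lay within 50 bp of the nearer start, against 129 of the other 477. The median ratio of replicate 2 over replicate 1 was 1.01 (41 peaks with a candidate in both), against 1.35 for the other 444, and replicate 1 was the higher at 20 of the 41, against 69 of the 444. Ribosomal protein genes at other promoters had a ratio of 1.062 over 18 peaks, against 1.51 over 652. At Nelf-E and RpL14, for example, the signals were 142.4 in replicate 1 and 111.7 in replicate 2, and at CG3104 and RpS21 83.5 and 59.3. What set the replicates apart at these genes was not tested.

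Lists of the pathways that Crc is known for are short. Their bound shares are set beside 20.3% of all genes in divergent pairs and 6.52% of other genes. Of the aminoacyl-tRNA synthetases, which charge tRNAs, 7 of 23 in divergent pairs were bound (30.4%) and 1 of 10 others, with SerRS, IleRS with Hem (148.8 pooled, 56.7 in replicate 1, 92.1 in replicate 2) and ArgRS with CG8578 (127.6, 48.3 and 81.0) the strongest. Translation factors gave 8 of 28 (28.6%) in pairs and 5 of 31 (16.1%) outside them. The strongest in pairs were eIF1 with RpL28 (209.5, 101.1 and 90.7), eIF3c with CCHa1-R (179.3, 75.4 and 96.4) and eIF4EHP with CG18428 (154.4, 49.3 and 108.2). Of the integrated stress response list 2 of 8 were bound in pairs (25%) and 7 of 16 outside them (43.8%). The 2 were Irbp18, whose product is a bZIP partner of Crc, with APP-BP1 (219.9, 97.5 and 120.8) and Ire1, the sensor kinase of stress in the endoplasmic reticulum, with Mrm2 (123.5, 63.2 and 58.7). At some of these peaks the partner's start was the nearer. This was so at eIF1 (341 bp, against 40 bp to RpL28), ArgRS (193 and 138), Irbp18 (182 and 44) and Ire1 (177 and 142). At SerRS, IleRS, eIF3c and eIF4EHP the start of the listed gene was the nearer.

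The unfolded protein response list had 4 of 10 bound. Besides Ire1 these were Hrd3, of the ubiquitin ligase complex that clears misfolded proteins, with PTPMT1 (251.3, 87.2 and 162.2), Herp, which works with that complex, with r2d2 (204.5, 61.3 and 142.1), and Sec61alpha, the channel of the translocon, with Daxx (170.1, 81.1 and 87.1). With lists of this size, 1 gene moves the share by 10 percentage points or more. The 4 of 10 stand beside 20.3% of all genes in divergent pairs. Outside pairs 2 of 11 were bound (18.2%), beside 6.52% of all other genes.

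Other lists of genes used in most cells are set beside the 20.3% of all genes in divergent pairs, and ran from 27.9% to 7.69%. RNA polymerases and general transcription factors gave 19 of 68 (27.9%), cell cycle and division 8 of 30, chromatin and insulator factors 9 of 37, autophagy 4 of 16, heat shock proteins 3 of 12, vesicle traffic and vacuolar ATPase 20 of 91, the respiratory chain and ATP synthase 10 of 47, splicing and RNA processing 11 of 55, the mitochondrial ribosome 11 of 59, mitochondrial import 1 of 6, DNA replication and repair 7 of 46, ribosome biogenesis 3 of 22 and the proteasome 2 of 26 (7.69%). The strong peaks at mRpL41, mRpS23 and mRpS10 thus came from a list whose bound share was close to that of all genes.

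The strongest peaks of the transcription, chromatin and mitochondrial ribosome lists were those at Chro and Ssl1 and at mRpL41, given above. Next among genes of transcription came MED30, a Mediator subunit, with the translesion polymerase gene Rev1, which had 300.5 pooled, 138.8 in replicate 1 and 157.9 in replicate 2. Among chaperones, Hsp83, the fly Hsp90, with CG14965 had 266.3, and it was one of the peaks with the higher signal in replicate 1 (143.6, against 123.7 in replicate 2). Of the traffic and vacuolar ATPase genes, Vps33B with the protease gene Fur1 had 333.6, Vha100-2 with the SNARE gene Vti1b 210.7 and alphaCOP, a subunit of the COPI coat, with CG13919 178.8.

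Respiratory genes followed with ND-ASHI, of complex I, beside the fumarase gene Fum1 (177.1 pooled, 56.3 in replicate 1, 126.3 in replicate 2), ND-MWFE, also of complex I, beside TppII (177.1, 63.5 and 110.0) and blw, the alpha subunit of ATP synthase, beside CG42260 (150.4, 49.9 and 99.7). All 3 were the higher in replicate 2, as were all 12 peaks with a mitochondrial ribosomal protein gene, beside 396 of the 485 peaks of the whole set. Of the 11 respiratory peaks with a candidate in both replicates, 2 were the higher in replicate 1. Processing genes had CstF64, of the cleavage stimulation factor, with CG31224 (191.4) and the Integrator subunits IntS6 with Rtel1 (158.5) and IntS9 with CG43295 (148.4). The strongest of the cell cycle, replication and proteasome lists were the kinase gene aurA with CG3281 (125.0), the replication licensing gene dup with SRPK (125.1) and the lid subunit gene Rpn5 with Hat1 (155.4).

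Lists of genes of restricted use are set beside the same 20.3%. None of 26 odorant and gustatory receptor genes, 12 cuticle genes, 2 yolk and eggshell genes and 1 embryonic patterning gene in divergent pairs had an optimal summit, and 1 of 3 cell type genes did, Mef2, the muscle factor, with Pal1 (67.3, 28.6 and 35.1). Outside pairs, 4 of 20 cell type genes were bound (20%), against 6.52% of all other genes. Of 87 histone genes 1 was bound, His2Av with ball (153.6, 52.9 and 99.2). The other histone pairs, 42 in all, belong to repeated copies and had no optimal peak, and the treatment of reads that map to repeats was not stated. Over the lists 58 pairs joined 2 genes of 1 list, of which those 42 histone pairs had no candidate. Of the other 16, 2 were bound, beside 20.8% of all pairs, namely Vha55 with Snx3 (99.5) and Bub3 with Cap-D2 (104.7).

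**Figure D4:**
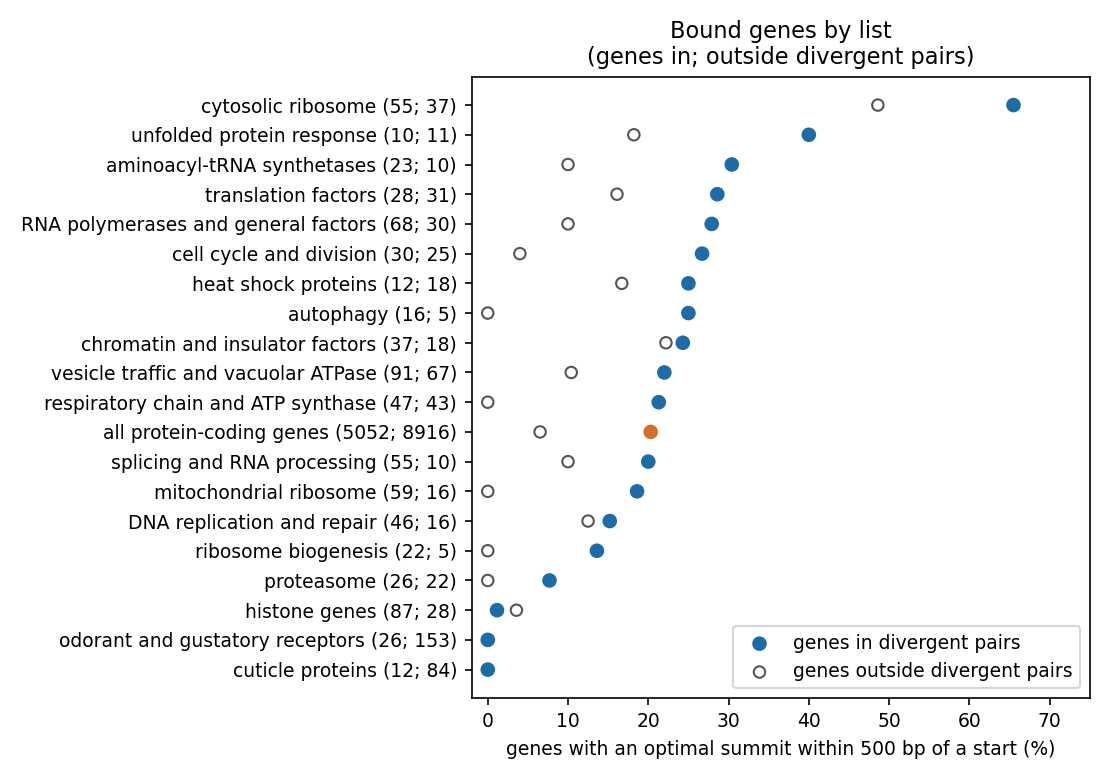
Percent of the genes of each list with an optimal summit within 500 bp of a start, for genes in divergent pairs (filled) and other genes (open), with both numbers of genes in parentheses and lists of at least 10 genes in pairs shown. The cytosolic ribosome is highest in both kinds, at 65.5% and 48.6%, and all protein-coding genes (orange) stand at 20.3% and 6.52%.

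Elements were searched on both strands in 201 bp windows centred on the summits. The DRE was present at 56 of the 521 summits at divergent promoters (10.7%, interval 8.37 to 13.7), against 29 of 703 at other promoters (4.13%, interval 2.89 to 5.86), 0.864% of windows centred 1000 bp to either side of the same summits and 7.86% of windows at the 5'-most starts of all protein-coding genes. Of the 86 optimal summits with a DRE anywhere, 56 were thus at divergent promoters. With windows centred on the midpoint between the starts, bound pairs had 7.63% (39 of 511, interval 5.63 to 10.3), against 8.72% (interval 7.56 to 10.03) of unbound pairs, and these intervals overlap. The median signal was 100.2 with a DRE and 100.4 without. The 5 strongest peaks with one were at Atat and Shc (467.4), RpL41 and NaCP60E (255.7), GCS2beta and CG5131 (231.4), RpL28 and eIF1 (209.5) and RpS25 and CG4820 (200.7), and 3 of the 5 pairs hold a ribosomal protein gene.

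The shorter CGATA, which every DRE contains, was at 44.7% of the summits, against 30.3% at other promoters and 41.9% at unbound midpoints. Motif 1 was at 19 summits (3.65%), against 1.85% at other promoters, 4.83% at unbound midpoints and 5.27% of all starts. Its strongest peaks were at RpL7 and RpLP0 (305.4 and 212.0), and others were at Strip and Gtpx (122.0) and at CG10214 and CG10375 (116.4). Motif 6 was at 10.6%, against 7.68%, 11.6% and 8.21% in the same order, and the E-box core element at 16.3%, against 12.4%, 12.2% and 13.7%. For each of these 4 the interval at the bound summits overlapped that at unbound midpoints. Centred on the midpoint, windows of bound pairs held CGATA in 41.3%, Motif 1 in 2.74%, Motif 6 in 11.5% and the E-box core element in 14.3%.

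GAGAGAG, which the GAGA factor Trl binds, went the other way, with 4 of 521 summits at divergent promoters (0.768%, interval 0.299 to 1.957), against 55 of 703 at other promoters (7.82%, interval 6.06 to 10.05) and 3.70% of all starts. Centred on the midpoint instead of the summit, bound pairs had 2.35% (12 of 511), against 2.34% of unbound pairs. The 4 summits were at CG5611 and Mtl, Ufc1 and CG8389, Hrb87F and B52, and CG42724 and CG10286.

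The CARE, the element named for ATF4 and C/EBP factors, was at 4 summits (0.768%, interval 0.299 to 1.957), against 1.56% at other promoters, 1.15% of the flanks and 1.38% of all starts, and the 4, at Dref and RpL13, fs(2)ltoPP43 and sick, AsnRS and DCTN6-p27, and MnM and Girdin, had a median signal of 68.6. The cyclic AMP response element TGACGTCA was also at 4 (0.768%, interval 0.299 to 1.957). At other promoters it was at 2 (0.284%, interval 0.0781 to 1.03), and these intervals overlap. The 4 divergent promoter peaks with it had a median signal of 187.8. The C/EBP site TTGCNNAA was at 92 summits (17.7%, interval 14.6 to 21.2), against 18.2% at other promoters and 17.1% at unbound midpoints. It was in 13.6% of the flanks and at 15.5% of all starts, and the intervals of all these sets overlap. The median signal was 113.8 with it, against 97.7 for the 429 peaks without it. No match here says only that these letters are not in the window. The median GC content was 35.8% at the summits, 36.8% at other promoters and 48.8% in the flanks, so elements rich in A and T meet different base composition in the flanks.

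**Figure D5:**
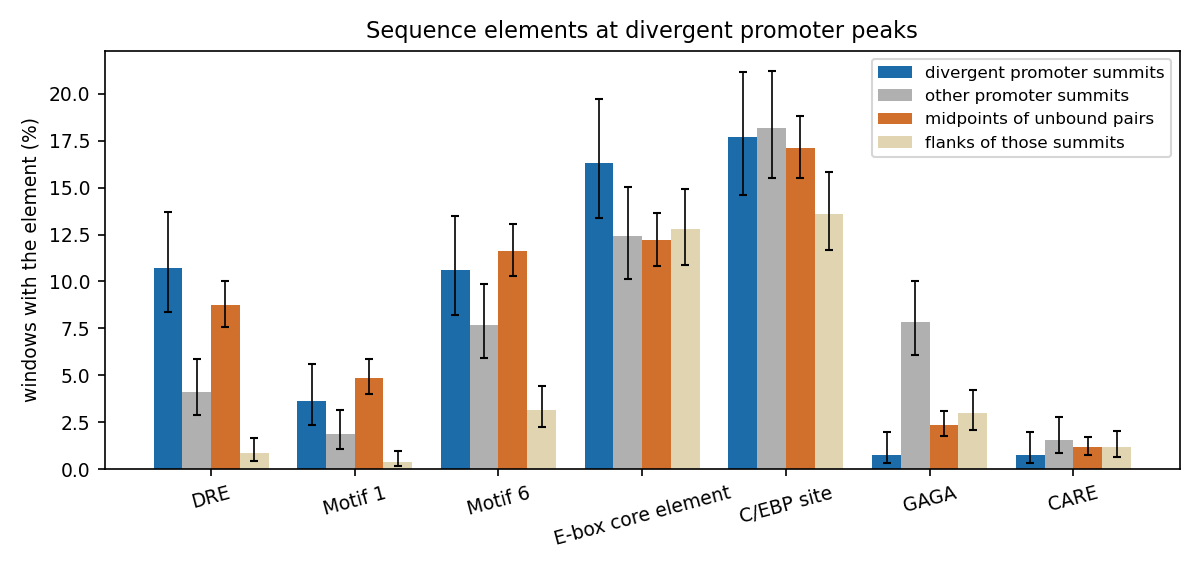
Percent of 201 bp windows that hold each of 7 elements at summits of divergent promoters (blue), summits of other promoters (grey), midpoints of unbound divergent pairs (orange) and flanks 1000 bp from the divergent promoter summits (tan), with Wilson 95% intervals. The DRE is at 10.7% of the divergent promoter summits and 4.13% of the other promoter summits, and GAGA at 0.768% and 7.82%.

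At the edges of the rule, the farthest peaks kept were at dbe and PNUTS, 498 bp from a start (pooled signal 89.8), and at Keap1 and kuk, 495 bp (153.3). Just outside lay those at Pi3K92E and Lrrk (107.6) and at Zn72D and Taf4 (148.4), both 520 bp from a start. For the gap, RpS7 and Anp at 1000 bp was inside, and CG9992 and CG4239 at 1012 bp (116.0) was outside. Signals on either side of both limits fell within the range of the set.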

How the data were processed

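ChIP-seq peak lists of 2 biological replicates of 1 group were used. Per the labels, chromatin was sonicated to 200 to 800 bp. The deposited dm6 lists are the candidates of each replicate (30000 each), 24369 pooled candidates and 2420 optimal peaks. The pooled and optimal lists join both replicates, so an optimal peak is no separate measurement. Per the deposited listings, candidates were called with a control, not analysed here. The signal of each peak, a score in the authors' own scale, is the authors' value. The −log10 of a q-value is in the deposited files too and did not enter the ranks. Ties in signal were ordered by chromosome and start. Which aligner, caller and normalization were used, and how deep the libraries were, was not given in the sources used here.

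Starts came from Ensembl BDGP6.54, release 115, and sequence from RefSeq Release 6, with Python 3.11.15, numpy 2.4.6 and pandas 2.3.3. Coordinates are 1-based. Lists on dm3 were not used. Intervals are Wilson 95% and cover counting error only. No test was run, since there is 1 group. Scripts were checked on simulated pairs, peaks and elements. Members, gene lists and elements were chosen with earlier results of these data known, and genes that fit a list's name pattern only by spelling, such as Timp, Cpn and RpLP0-like, and others judged wrong members (Rrp1 of ribosome biogenesis, Nelf-E of the integrated stress response) were taken out after values were seen. Some pairs that the naming rule selects are not reported here. Named pairs were the 20 strongest, up to the 3 strongest of the lists, those at the limits and those furthest apart between replicates. Limits on distance and gap, choice of starts, replicates, windows and mismatches were varied.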

Additional observations from a re-analysis of the deposited data

How the results depend on the processing

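Of 89 alternatives, 64 left a value within its interval or 1.5 times the count, and 25 moved it. The share of divergent pairs bound (20.8%) was 19.1% with a limit of 200 bp, 23.0% with 1 kb, 18.5% with any annotated gene as partner and 11.9% with only optimal peaks above the list's median signal. The share of candidates that were optimal (22.3%) was 26.3% at 200 bp, 19.8% at 1 kb, 24.8% with gaps of at most 500 bp, 12.1% with only peaks above the median signal, and 19.1% to 26.5% when 1 replicate was left out. Summits between the starts (77.4%) were 67.3% at 1 kb and 69.9% with the 5'-most start of each gene. Above the list's median there were 283 peaks, with a median signal of 139.6 and 96.8% support in both replicates. The median signal was 41.9 to 58.1 from single replicates, whose scales differ, where the ratio to the median of the list was 1.00 without replicate 1 and 1.04 without replicate 2, beside 1.04 in the pooled list and 0.98 among peaks above the list's median. Support in both replicates (93.1%) was 75.2% with summits within 50 bp, and 100% within 200 bp or by overlapping intervals. Pearson's r of log2 signals was 0.78. The DRE share (10.7%) was 5.57% in windows of 50 bp each side, 19.96% with 250 bp and 24.95% with 1 mismatch, where unbound midpoints had 26.3%, above the members as they were not with exact matches (8.72%), and other promoter summits 15.2%. Among settings chosen after seeing the data, peaks ranked within the optimal number in both replicates had a median signal of 125.8, and leaving out the histone pairs or merging pairs that share a gene gave 21.1% and 20.5% of pairs bound. Without a replicate, support and agreement between replicates have no value. No paired analysis was possible because there is 1 group. Read depth is unknown, so weak candidates cannot be told from background, and the replicate lists end at 30000 regions.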
